A study of Mus musculus with 12 samples.

Results

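The arrays described here are the 4 of mouse embryonic stem (ES) cells kept serum-free for 10 days or for 3 days, out of the 12 arrays of the series. They were chosen by their labels alone, 1 array of each of 2 reporter lines at each day, and all 20790 genes that could be tested were compared. The question put to them was which genes had returned by day 10 to their level before day 3, which had kept a change, and which changed only after day 3.

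The series followed RNA from the Stella-GFP and Dazl-GFP ES cell lines on single-colour arrays on days 0, 3 and 10 in 2 arms. Cells of the serum-free arm, called the 2i condition in the labels, grew in B27N2 medium with leukemia inhibitory factor (LIF), and the inhibitors used in the 2i experiments were 1 µM of PD0325901, which blocks the kinase MEK, and 5 µM of Kenpaullone, which blocks the kinase GSK3β. Cells of the FBS arm grew in DMEM with 15% fetal bovine serum and LIF. In both arms the cells lay on irradiated embryonic fibroblasts, whose RNA can be part of every sample. The labels do not say what the serum-free cells of day 0 had received, nor whether the FBS arm was given the inhibitors. Each line is a single line carrying a GFP reporter for Stella (Dppa3) or Dazl, and nothing in the labels says that the arrays of a group came from repeated cultures, so the p-values measure the spread between these arrays.

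ES cells move between a naive state, like the epiblast before implantation, and a primed or formative state that precedes commitment. ERK signalling, which MEK switches on, drives cells towards the primed state and towards primitive endoderm, the extraembryonic lineage that lines the yolk sac. GSK3 marks beta-catenin for destruction, and its inhibition is known to release beta-catenin to act with TCF and LEF factors on Wnt target genes.

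Between day 3 and day 10 the serum-free cells gained RNA for some Wnt and beta-catenin targets and some genes of primed and formative cells, and lost RNA for some primitive endoderm factors and for chains of the basement membrane that this lineage makes. Of all genes that rose, 169 had first fallen between days 0 and 3, and 99 of these lay within 0.5 of day 0 at day 10. Against day 0, the median at day 10 was -0.20 for the Wnt list, 0.14 for the primed and formative list and -1.81 for the primitive endoderm list. The genes of naive and of general pluripotency showed no change that passed the test. With 13 genes tested on each list and 2.32% of all genes passing, 0 is near the share of all genes. Some markers of the feeder fibroblasts rose beside the first 2 groups. In all, 483 of 20790 genes passed an adjusted p of 0.05 in limma (2.32%), 261 higher at day 10 (1.26%) and 222 lower (1.07%), 424 of them by at least 2-fold. The balance turned under other scalings, with 240 higher and 364 lower after quantile normalization and 175 and 451 in the authors' deposited table, fitted the same way. All 483 had the same sign in both lines, and the change of Dazl-GFP was the larger in size in 350 of them. The fit counts disagreement between the lines as spread, so passing favours genes that agree in sign. That agreement is therefore not a separate test. Over all genes tested the median change was 0.13 in Stella-GFP and 0.22 in Dazl-GFP.

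All levels below are log2 signals relative to the array's 75th percentile, paired values are for Stella-GFP and then Dazl-GFP, and changes are log2 differences with the standard error (SE) of the fit. The median change over the genes tested was 0.19 rather than 0, and over all 26897 genes on the array it was 0.28. The 4 arrays were alike in quality, with 68.6% to 70.5% of spots well above background. The day 10 and day 3 arrays of Stella-GFP lay on the same slide, those of Dazl-GFP on different slides, and the change within Stella-GFP is therefore also the change within a slide. With the slide as a block 0 genes passed (3857 at an unadjusted p under 0.05), and without the Stella-GFP or the Dazl-GFP array of day 3 also 0 (4048 and 2925 unadjusted), against 134 and 4 without the Stella-GFP or the Dazl-GFP array of day 10 and 50 without either serum-free array of day 0.

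Of the 14 tested genes on a list of 15 Wnt and beta-catenin targets, 4 rose after day 3 and 0 fell, where 1.26% of all genes rose, and the list's median change was 1.28. The summed signal of the list was 13.5 and 17.0 times the 75th percentile at day 10, against 5.02 and 4.62 at day 3. Sp5, a zinc finger factor that is a direct target of beta-catenin, led the list. It also led all genes called that have more than a clone or accession name. Its level was 0.70 and -0.24 at day 0, -2.21 and -4.14 at day 3, and 1.46 and 1.84 at day 10. Both lines dipped at day 3, and both day 10 arrays lay above every array of the earlier days. The change after day 3 was 4.82 (SE 0.48, adjusted p = 0.0198), a 28.3-fold rise, with 3.67 within Stella-GFP and 5.97 within Dazl-GFP. With the slide as a block it was 4.37 (adjusted p = 0.110).

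The start of Sp5 is shown because beta-catenin acts through TCF and LEF factors, whose binding motif CTTTGA (capitals) occurs in it. The window of 300 bases, 250 before the start and 50 after it, lies at chr2:70474673-70474972 on the plus strand and is taken from RefSeq, build GRCm38.p6.
Sp5: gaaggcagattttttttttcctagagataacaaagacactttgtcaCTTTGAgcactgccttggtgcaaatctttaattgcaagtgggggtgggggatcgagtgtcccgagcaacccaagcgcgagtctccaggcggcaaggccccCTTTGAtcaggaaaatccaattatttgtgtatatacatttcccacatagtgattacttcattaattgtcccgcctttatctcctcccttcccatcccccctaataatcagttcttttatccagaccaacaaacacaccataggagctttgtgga
The motif, searched on both strands, starts 204 and 104 bases before the gene's start. It was present in 16.0% of all 32851 windows and in any window of 18.2% of genes, and in 4 of the 10 genes of the Wnt list that have a window, which are Sp5, Lef1, T and Dkk1. A match of these letters is a description and not a binding site.

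Lef1, one of the factors that carry beta-catenin to DNA, stood at 1.65 and 2.54 on day 10, against -0.87 and -2.68 on day 3. Every day 10 value lay above every day 3 value, and the rise was 3.87 (SE 0.67, adjusted p = 0.0384), with a second probe at 3.57. Ccnd2, a D-type cyclin of the G1 phase, stood at 1.23 and 0.96 on day 10, against -0.66 and -1.29 on day 3. It rose by 2.07 (SE 0.27, adjusted p = 0.0256), and its other probes rose by 1.72 and 1.73. T (brachyury), a factor of the primitive streak, was dim throughout, at -3.81 and -4.48 on day 10, against -4.80 and -5.75 on day 3. It rose by 1.13 (SE 0.19, adjusted p = 0.0358), and this was also the 1 gene that rose among the 11 tested mesendoderm genes. Axin2, a feedback inhibitor of the pathway, differed by 0.94 (adjusted p = 0.0930). The caudal factor Cdx2 differed by 2.93 (adjusted p = 0.116) and was above background on 1 array of day 10 and on none of day 3.

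Of the 14 genes of primed and formative pluripotency, 5 rose and 0 fell, Lef1 among them, where 1.26% of all genes rose. All 14 differences had a positive sign, with a median of 0.86. The median over all genes on the array was itself above 0, at 0.28. Dnmt3b, a de novo DNA methyltransferase that rises as cells leave the naive state, measured 4.35 and 4.02 at day 0, 1.52 and 1.21 at day 3, and 4.14 and 4.29 at day 10. The day 10 arrays were back among those of day 0, and the rise after day 3 was 2.85 (SE 0.35, adjusted p = 0.0236). Its relative Dnmt3a differed by 0.04. Pou3f1, the POU factor Oct6 of the early epiblast, had 2.49 and 2.74 at day 10, against 0.12 and -0.56 at day 3, a rise of 2.84 (SE 0.38, adjusted p = 0.0256). Fgf5, the classical marker of the primed epiblast, had -0.74 and -2.03 at day 10, against -2.83 and -4.74 at day 3. The lines differed in level, but in each the day 10 value was the higher, with a rise of 2.40 (SE 0.32, adjusted p = 0.0256). Cdh2, N-cadherin, had -2.14 and -1.36 at day 10, against -3.77 and -4.11 at day 3, a rise of 2.19 (SE 0.41, adjusted p = 0.0458). Otx2, a head and epiblast homeobox factor, differed by 0.10 and did not pass. In the same direction, 1 of 17 targets and feedback genes of the MEK-ERK pathway rose, Ccnd1 (cyclin D1), by 1.77 (SE 0.28, adjusted p = 0.0319). Dusp6, the ERK phosphatase, differed by 1.10 (adjusted p = 0.132). Dusp4, another phosphatase of the list, went the other way, with -1.14 and a second probe at -0.70, neither passing. Of the 17 differences 13 were positive. Against day 0, 6 of the 17 were still lower at day 10 and 0 higher, where 3.16% of all genes were lower. The list's median against day 0 was -1.07.

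**Figure D1:**
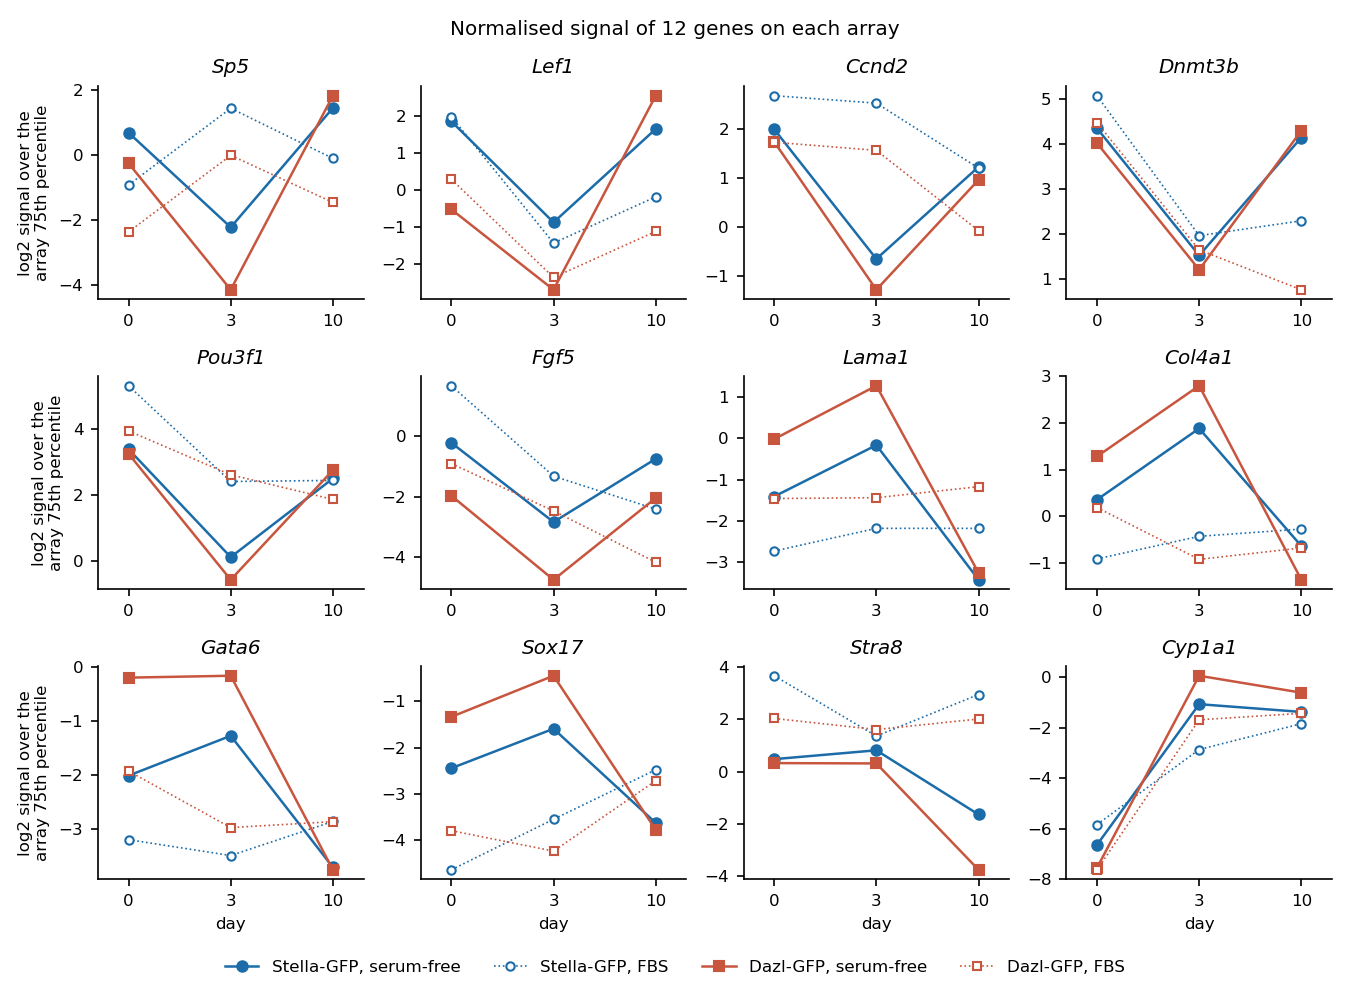
Level of 12 genes on each array (log2 signal over the array's 75th percentile) against the day, with a panel per gene, blue for Stella-GFP, red for Dazl-GFP, filled points and solid lines for the serum-free arm, open points and dotted lines for the FBS arm. Sp5, Lef1, Ccnd2, Dnmt3b, Pou3f1 and Fgf5 were low at day 3 and higher at day 10 in both serum-free lines, while Lama1, Col4a1, Gata6, Sox17 and Stra8 were lower at day 10 than at day 3, and Cyp1a1 stayed high after day 0.

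Primitive endoderm gave the reverse picture. Of 18 tested genes on a list of 19, 6 fell and 0 rose, where 1.07% of all genes fell, and the median change of the list was -1.59. That median was -0.81 within Stella-GFP and -2.17 within Dazl-GFP. The summed signal of the list was 18.8 and 11.8 at day 10, against 27.1 and 51.0 at day 3, and the difference in the sum was thus mostly in Dazl-GFP. Against day 0, 7 of the 18 genes were lower at day 10 and 0 higher, where 3.16% of all genes were lower. The list's median against day 0 was -1.81. These are bulk samples, in which fewer cells of a type and less RNA per cell cannot be told apart.

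Of the transcription factors, Gata6, Sox17 and Sox7 fell. Gata6, which specifies the lineage, stood at -3.71 and -3.75 on day 10, against -1.27 and -0.16 on day 3, a fall of 3.02 on the log2 scale (SE 0.45, adjusted p = 0.0288). A further probe of Gata6 fell by 2.20 and another differed by 0.53 without passing, so its probes disagree. Sox17, an SRY-related factor of endoderm, stood at -3.62 and -3.77 on day 10, against -1.59 and -0.45 on day 3, and fell by 2.68 (SE 0.47, adjusted p = 0.0401). Sox7, its relative in parietal endoderm, stood at -4.33 and -4.13 on day 10, against -1.99 and -1.96 on day 3, and fell by 2.26 (SE 0.29, adjusted p = 0.0255). For these factors the lines lay close together at day 10, and the arrays of the 2 days did not overlap. Gata4, another GATA factor of the lineage, differed by 0.19 and did not pass.

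The other 3 members that fell encode the basement membrane. Lama1, the laminin alpha 1 chain, stood at -3.43 and -3.26 on day 10, against -0.17 and 1.27 on day 3. It fell by 3.90 on the log2 scale (SE 0.31, adjusted p = 0.0198), and a second probe gave a change of -2.49. Col4a1 and Col4a2, the collagen IV chains alpha 1 and alpha 2 that assemble into a single molecule, fell by 3.34 (SE 0.50, adjusted p = 0.0300) and by 3.23 (SE 0.54, adjusted p = 0.0358). Col4a1 stood at -0.64 and -1.36 on day 10, against 1.89 and 2.80 on day 3. Col4a2 stood at -0.93 and -1.76 on day 10, against 1.33 and 2.45 on day 3. All 3 probes of Col4a1 and both of Col4a2 passed, with the deeper fall in Dazl-GFP.

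These collagen genes lie head to head on chromosome 8, and their windows are shown because the genes moved together and share the region around their starts. Col4a1 reads along the minus strand (chr8:11312777-11313076) and Col4a2 along the plus strand (chr8:11312555-11312854), from RefSeq, build GRCm38.p6. Capitals mark the 78 bases, chr8:11312777-11312854, that both windows hold on opposite strands.
Col4a1: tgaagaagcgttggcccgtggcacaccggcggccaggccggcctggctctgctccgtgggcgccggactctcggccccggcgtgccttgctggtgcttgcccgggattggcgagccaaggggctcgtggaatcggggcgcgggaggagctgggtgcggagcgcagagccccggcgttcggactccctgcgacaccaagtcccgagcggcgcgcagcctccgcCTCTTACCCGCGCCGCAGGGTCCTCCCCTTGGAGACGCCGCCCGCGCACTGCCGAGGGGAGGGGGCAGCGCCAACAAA
Col4a2: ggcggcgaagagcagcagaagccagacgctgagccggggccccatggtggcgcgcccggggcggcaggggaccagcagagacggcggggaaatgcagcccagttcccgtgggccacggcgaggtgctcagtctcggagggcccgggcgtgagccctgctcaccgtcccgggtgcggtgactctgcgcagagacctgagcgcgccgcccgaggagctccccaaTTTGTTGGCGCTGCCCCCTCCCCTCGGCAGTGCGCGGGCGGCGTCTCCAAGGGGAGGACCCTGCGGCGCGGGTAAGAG
Neither window holds CTTTGA on either strand.

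Receptors of the visceral endoderm on the list did not pass. Cubn, the cobalamin and albumin receptor cubilin, differed by -2.35 (adjusted p = 0.167), with -2.78 and -2.49 at day 10, against -1.51 and 0.94 at day 3. At day 10 it differed from day 0 by -4.76 in limma (adjusted p = 0.0326). Its partner Lrp2 (megalin) differed by -0.40 (adjusted p = 0.560) and had already been lower at day 3 than at day 0, by 2.42 on the log2 scale (adjusted p = 0.0156). Outside the list, Pth1r, the parathyroid hormone receptor that parietal endoderm carries, fell by 3.34 (SE 0.51, adjusted p = 0.0301), to -3.09 and -3.47 at day 10, against -0.59 and 0.70 at day 3.

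Among 13 naive pluripotency genes 0 passed, where 2.32% of all genes passed, so that 0 of 13 is near the share of all genes. Their median change was -0.42, against 0.28 over all genes on the array. Nanog, a core naive factor, stood at 2.93 and 3.35 on day 10, against 3.31 and 3.80 on day 3 (difference -0.42, adjusted p = 0.200). Tcl1, a cofactor of AKT kinase, differed by -1.09 (adjusted p = 0.0680) and the T-box factor Tbx3 by -0.97 (adjusted p = 0.190). Only 1 of the 13 differences was positive, that of the homeobox factor Gbx2 (1.97, adjusted p = 0.084), and the 13 genes were well above background on all 4 arrays. Of 13 general pluripotency genes 0 passed as well, with a median of 0.42. Pou5f1 (Oct4), without which ES cells are not maintained, stood at 5.06 and 4.38 on day 10, against 4.66 and 4.69 on day 3, and its difference was 0.05 (adjusted p = 0.950). Lin28a, an RNA-binding protein that blocks let-7, differed by 1.36 (adjusted p = 0.0686).

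The series is named for Dazl and the TET enzymes, and none of these passed between the days. Dazl, an RNA-binding protein of germ cells, stood at -2.29 and 0.90 on day 10, against -1.63 and 0.69 on day 3, so that the lines differed far more than the days (difference -0.23, adjusted p = 0.828). Dppa3 (Stella), which protects the maternal genome from demethylation in the zygote, stood at 3.91 and 3.54 on day 10, against 5.33 and 4.49 on day 3 (difference -1.19, adjusted p = 0.211). Tet1, Tet2 and Tet3, which oxidise methylcytosine, differed by -0.10, -0.44 and -0.76 (adjusted p = 0.796, 0.163 and 0.273). Other probes of Tet2 differed by -0.49 and -1.38 and those of Tet3 by 0.50 and 0.63, without passing. Of 21 tested germ cell genes 1 fell, where 1.07% of all genes fell. The faller was Stra8, the retinoic acid target that opens meiosis. It stood at 0.48 and 0.33 on day 0, 0.82 and 0.32 on day 3, and -1.63 and -3.75 on day 10. The arrays of days 0 and 3 were alike and those of day 10 lay below all of them, with a fall of 3.26 after day 3 (SE 0.53, adjusted p = 0.0353). Among 16 genes of DNA methylation and demethylation Dnmt3b alone passed.

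Retinoid genes moved in both directions. Of 14, 3 rose and 1 fell, the faller being Stra8, where 1.26% of all genes rose and 1.07% fell. Rxrg, the gamma retinoid X receptor, stood at -2.07 and -2.05 on day 10, against -4.81 and -5.58 on day 3, and rose by 3.13 (SE 0.30, adjusted p = 0.0198). Crabp2, the retinoic acid-binding protein, was not well above background on either day 3 array and rose at least 2.94-fold (adjusted p = 0.0236).

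Some markers of the feeder fibroblasts rose as well. Of 20 tested markers on a list of 21, 4 rose and 0 fell, where 1.26% of all genes rose, with a list median of 1.14. The summed signal of the list was 92.8 and 62.7 at day 10, against 61.6 and 60.9 at day 3. The sum was higher at day 10 in Stella-GFP and nearly level in Dazl-GFP. Thy1, a surface glycoprotein of fibroblasts, stood at 1.51 and 0.67 on day 10, against -0.47 and -1.01 on day 3, and rose by 1.82 (SE 0.34, adjusted p = 0.0458). S100a4 (fibroblast-specific protein) rose by 1.77 (SE 0.31, adjusted p = 0.0392), though its second probe differed by 0.06. Vim (vimentin) rose by 1.48 and Twist1, a mesenchymal helix-loop-helix factor, by 1.14. The collagens Col1a1 and Col1a2 differed by 0.91 and 0.53 without passing. On each of the 4 arrays 20 of the 21 markers were well above background, all but Fap, which was not tested. The part of the feeder cells in the other changes was not tested.

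A few genes of several other lists passed too, where 1.26% of all genes rose and 1.07% fell. Of 18 contractile and serum response genes 2 rose, Myl9 (myosin light chain 9) by 1.70 (SE 0.29, adjusted p = 0.0362) and Cnn1 (calponin 1) by 1.03 (SE 0.17, adjusted p = 0.0362). Of 15 chemokines tested 2 rose, Cxcl12, which guides cells through CXCR4, by 1.73 (SE 0.27, adjusted p = 0.0317) and Ccl5 by 1.26 (SE 0.23, adjusted p = 0.0412). Cxcl12 had a second probe at 0.68 that did not pass. Mmp14, a membrane-bound collagenase, was the 1 gene of 12 metalloproteinases and inhibitors that rose, by 1.15. Of 19 imprinted genes tested 3 rose, Mest by 2.03 (SE 0.32, adjusted p = 0.0319), Dlk1, a Notch-like ligand, by 1.71 (adjusted p = 0.0404) and Cdkn1c, the cell cycle inhibitor p57, by 1.65 (adjusted p = 0.0319). Mest stood at 4.53 and 4.31 on day 10, against 2.59 and 2.18 on day 3, and the days did not overlap. Sox1, a factor of early neural cells, was the 1 riser of 11 neuroectoderm genes, by 1.92 (SE 0.32, adjusted p = 0.0353), and its second probe differed by 0.70 without passing. Krt7, a keratin of simple epithelia, was the 1 faller of 11 trophoblast genes, by 2.27 on the log2 scale (SE 0.32, adjusted p = 0.0279).

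**Figure D2:**
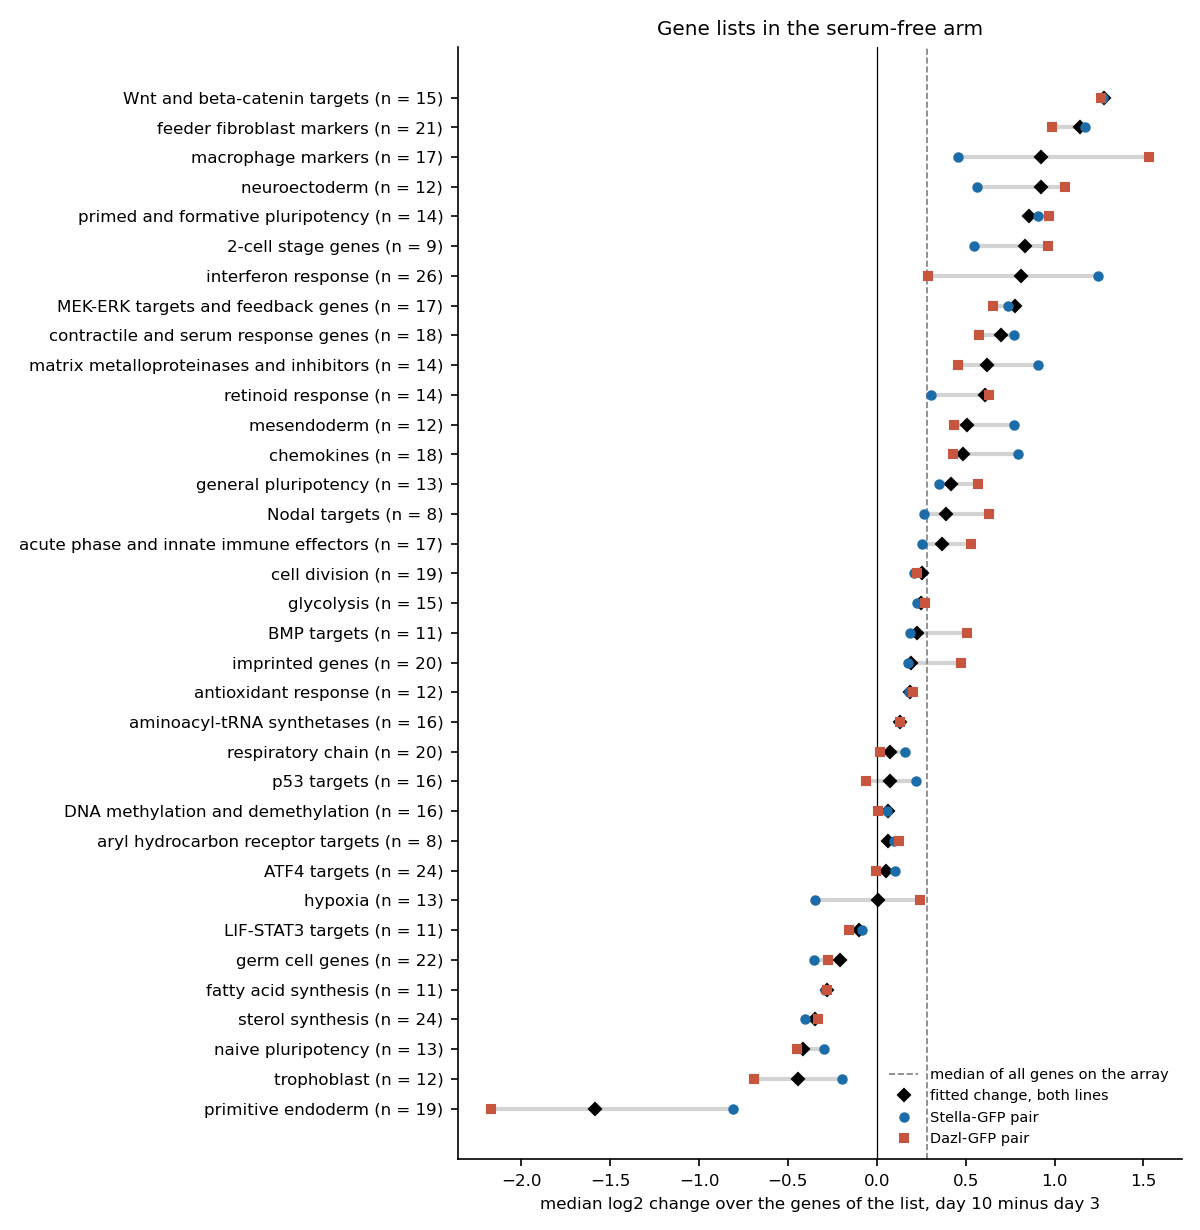
Median log2 change, day 10 minus day 3, over the genes on the array of each of 35 lists (number of genes in brackets), with black diamonds for the fitted change, blue circles for the Stella-GFP pair and red squares for the Dazl-GFP pair. The dashed line is the median of all genes on the array, 0.28. Wnt and beta-catenin targets lie at the top, at 1.28, and primitive endoderm lies at the bottom, at -1.59, with the lines at -0.81 and -2.17.

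Outside the lists, the highest changes were in genes of varied function. Bcl11a, a zinc finger repressor known for silencing fetal globin, stood at 0.20 and 0.49 on day 10, against -2.76 and -3.58 on day 3. It rose by 3.51 (SE 0.37, adjusted p = 0.0206), and its other probes rose by 4.96 and 5.43. Gpld1, a phospholipase that cuts GPI anchors, was not well above background on any serum-free array of day 3 or day 0 and stood at -2.39 and -4.13 on day 10, at least 7.08-fold higher (adjusted p = 0.0319). Ccdc192, Btla (an inhibitory receptor of lymphocytes), Tnfsf11 (RANKL, the osteoclast ligand) and Plxnc1 (a semaphorin receptor) were likewise not well above background at day 3, and were at least 7.15-fold, 2.88-fold, 2.25-fold and 4.14-fold higher at day 10. A second probe of Plxnc1 differed by 1.00, one of Ccdc192 by 2.54 and one of Tnfsf11 by 0.17, without passing. Wt1, a zinc finger factor of kidney and gonad, rose by 3.34 (SE 0.52, adjusted p = 0.0319), above background on 1 of the day 3 arrays.

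Among genes called that have more than a clone or accession name, the lowest change belonged to Hkdc1, a hexokinase-like enzyme of glucose metabolism. It stood at -4.44 and -4.66 on day 10, against -0.43 and 0.71 on day 3, and fell by 4.69 on the log2 scale (SE 0.46, adjusted p = 0.0198). Pygl, the liver form of glycogen phosphorylase, stood at -1.57 and -2.56 on day 10, against 1.72 and 0.87 on day 3, and fell by 3.36 (SE 0.45, adjusted p = 0.0256). In each of these the lowest day 3 array lay above the highest day 10 array. Gsta2, a glutathione transferase with close relatives that a probe may also bind, and Nmbr, the neuromedin B receptor, were not well above background at day 10, at least 4.25-fold and 3.04-fold lower (adjusted p = 0.0282 and 0.0288). Hs3st1, a heparan sulfate sulfotransferase, fell by 3.27 (SE 0.56, adjusted p = 0.0381) and Fcgr3, a receptor for the Fc part of IgG, by 2.85 (SE 0.33, adjusted p = 0.0227).

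Set against day 0, 274 of the 483 genes called between days 3 and 10 had returned. A gene was counted as returned when its change from day 0 to 3 and its change from day 3 to 10 both passed with opposite signs. It was late when only the second passed and the earlier change was under 0.5 in size, and persisted when days 3 and 10 both differed from day 0 in 1 direction with less than 0.5 between them. These comparisons share arrays, so the classes are descriptions. Day 3 differed from day 0 in 2900 genes (13.9%), 1224 higher (5.89%) and 1676 lower (8.06%), and day 10 differed from day 0 in 1114 (5.36%), 456 higher (2.19%) and 658 lower (3.16%). Leaving out 1 array gave 236 to 3960 genes for day 3 and 0 to 1421 for day 10, with the 0 on leaving out the Dazl-GFP array of serum-free day 0 (2458 at an unadjusted p under 0.05). Of the returned genes 169 rose after day 3 and 105 fell, and there were 112 late genes (50 higher, 62 lower) and 434 persisted genes (193 higher, 241 lower). A further 11 went on in the direction they had taken by day 3, and 86 called genes belonged to no class. Without either serum-free array of day 3, 0 genes were returned or late in the limma fit.

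The returned genes mostly ended close to their day 0 level. At day 10, 5.36% of all genes tested differed from day 0, and the share of all genes within 0.5 of it was not counted. Of the 169 that rose after day 3, 99 lay within 0.5 of day 0 at day 10, and 25 still differed from day 0. Their median change from day 0 was -1.90 at day 3 and -0.13 at day 10. Of the 105 that fell after day 3, 71 lay within 0.5 and 3 still differed, with medians of 1.33 at day 3 and -0.08 at day 10. Mest differed from day 0 by -2.00 at day 3 and by 0.03 at day 10, and Pygl by 3.57 and by 0.21. Ccnd2, T, Pou3f1, Fgf5 and Ccnd1 were returned genes too, at -0.78, -0.02, -0.69, -0.30 and 0.47 from day 0 on day 10. So were Thy1, Vim and Cxcl12, at -0.85, 0.19 and -0.47 from day 0 on day 10. S100a4 and Myl9 were in the class as well, but still differed from day 0 on day 10 in limma. They lay at -1.84 and -1.3 from it (adjusted p = 0.0204 and 0.0455). Dlk1, the Notch-like ligand, returned in part, differing from day 0 by -4.06 at day 3 and by -2.35 at day 10 (adjusted p = 0.0018 and 0.0110). Lama1 was a returner that overshot, at 1.27 above day 0 on day 3 and 2.63 below it on day 10 on the log2 scale.

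Late genes lay, by definition, within 0.5 of day 0 at day 3. Ccno, a cyclin of multiciliated cells, differed from day 0 by -0.32 at day 3 and by 2.91 at day 10, and stood at 1.53 and 0.06 on day 10, against -1.52 and -3.36 on day 3. Gadd45g, a stress-induced growth arrest gene, stood at 3.64 and 2.91 on day 10, against 0.71 and 0.42 on day 3, and rose by 2.70 (SE 0.43, adjusted p = 0.0319). Ctnnd2 (delta-catenin), Gp1ba (a platelet glycoprotein, above background on 1 day 10 array and at least 1.35-fold higher) and Tnfrsf19 (a TNF receptor also known as Troy) completed the 5 highest. The 5 lowest were Stra8, Gata6, Cldn7, Col17a1 and Msln. Cldn7, a tight junction claudin, stood at 2.71 and 2.96 on day 0, 2.86 and 2.75 on day 3, and 0.26 and -0.16 on day 10, and fell by 2.75 (SE 0.31, adjusted p = 0.0212). Col17a1, a hemidesmosome collagen, fell by 2.60 and Msln (mesothelin) by 2.60.

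Persisted genes had, by definition, fitted levels at days 3 and 10 less than 0.5 apart. Equality of these levels was not tested. The SE of that difference was 0.71 for Cyp1a1 and 0.46 for Shisal2b. Cyp1a1, the cytochrome P450 that the aryl hydrocarbon receptor induces, stood at -6.65 and -7.55 on day 0, where it was not above background, at -1.07 and 0.06 on day 3, and at -1.38 and -0.62 on day 10. On the log2 scale it was at least 5.35 above day 0 at day 3 and at least 4.86 above it at day 10 (adjusted p = 0.0037 and 0.0089), and between days 10 and 3 it differed by -0.49 (adjusted p = 0.668). Of the 7 tested targets of the aryl hydrocarbon receptor, 0 passed between days 10 and 3. Rasgef1a, an exchange factor for small GTPases, differed from day 0 by 3.86 and 3.50, and Cdhr1, a photoreceptor cadherin, by 2.73 and 3.16. Dusp27 differed from day 0 by 2.76 at day 10 and A2m, a protease inhibitor of plasma that was not above background at day 0, by at least 2.47. A second probe of A2m differed by 0.90 between days 10 and 3 without passing, which is more than the 0.5 of the class. Among the persistently low, Acer1, an alkaline ceramidase, differed from day 0 by -2.36 and -2.71, Hrh1, the histamine H1 receptor, by -2.16 and -2.60, and Shisal2b by -2.39 and -2.83. Olr1, the receptor for oxidised LDL, and Mpp3, a scaffold protein, were not well above background on any serum-free array of day 3 or 10, and lay at least 2.50 and 3.56 under day 0 at day 3 and at least 2.09 and 3.25 under it at day 10 on the log2 scale.

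**Figure D3:**
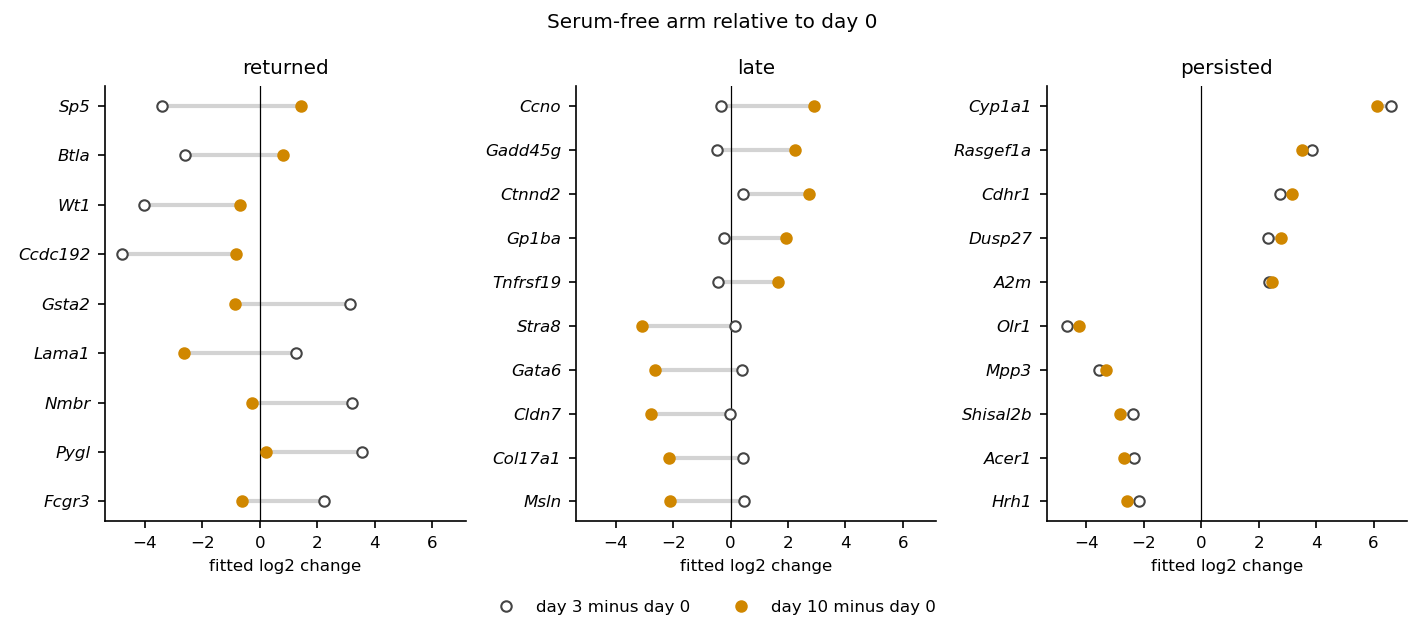
Fitted log2 change from day 0 in the serum-free arm, open circles for day 3 and filled circles for day 10, for genes of each class and direction with the largest defining changes. Returned genes move towards or past 0 between the circles, late genes start near 0 at day 3, and in persisted genes the circles lie within 0.5 of each other. Genes that were not above background at a day are drawn at their fitted values.

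The change after day 3 was then set against that of the FBS arm, as the difference of the changes, in which the same serum-free arrays enter. It passed in 2019 genes (9.71%), with 1265 changes more positive under serum-free culture (6.08%) and 754 more negative (3.63%). That balance was 975 to 1052 after quantile normalization and 518 to 1012 in the authors' deposited table, fitted the same way. In the main scaling 324 of the 483 genes called between the serum-free days were among the 2019. With the slide as a block 0 genes passed (6915 at an unadjusted p under 0.05), and leaving out 1 array gave 0 to 3107, with 0 without either FBS array of day 3, the Dazl-GFP array of FBS day 10 or that of serum-free day 3. In the FBS arm itself 304 genes passed between days 10 and 3 (1.46%). Sp5 changed by 4.82 in the serum-free arm and by -1.50 in the FBS arm, a difference of 6.32 (adjusted p = 0.0201). Fgf5 changed by 2.40 and by -1.39 (difference 3.79, adjusted p = 0.0233), Ccnd2 by 2.07 and by -1.49 (difference 3.55, adjusted p = 0.0201), and Dnmt3b by 2.85 and by -0.28 (difference 3.13, adjusted p = 0.0307). In each of these the fitted change was positive in the serum-free arm and negative in the FBS arm. None of these FBS changes passed by itself in limma (adjusted p = 0.121, 0.0704, 0.0513 and 0.644). Lef1 had a positive change in both arms, with 3.87 in the serum-free arm and 1.24 in the FBS arm (difference 2.63, adjusted p = 0.0980).

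The primitive endoderm genes also parted between the arms. Of the 18 tested, 6 had a difference between the arms below 0 that passed and 0 one above it, where 3.63% of all genes had one below it. Sox17 changed by -2.68 in the serum-free arm and by 1.29 in the FBS arm (difference -3.97, adjusted p = 0.0319), and Lama1 by -3.90 and by 0.13 (difference -4.03, adjusted p = 0.0201). The FBS levels of Lama1 were low and level, at -2.18 and -1.17 on day 10, against -2.18 and -1.44 on day 3. Stra8 changed by -3.26 in the serum-free arm and by 0.99 in the FBS arm (difference -4.25, adjusted p = 0.0330). The FBS changes of Sox17 and Stra8 did not pass by themselves in limma (adjusted p = 0.157 and 0.285). Feeder markers differed too, with 6 of 20 differences above 0 that passed and 0 below it, where 6.08% of all genes passed above 0, and their list median was 1.14 in the serum-free arm and -0.65 in the FBS arm. Their part in the difference between the arms was not tested.

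**Figure D4:**
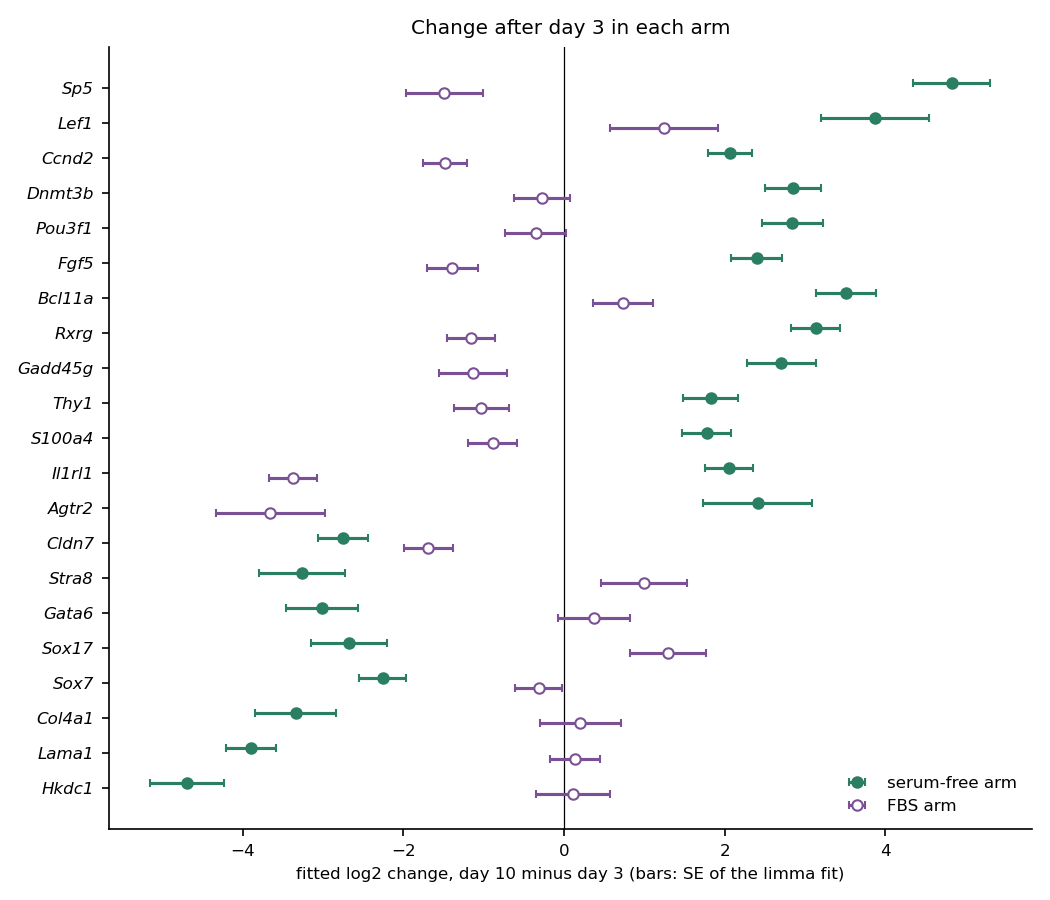
Fitted log2 change, day 10 minus day 3, of 21 genes in the serum-free arm (filled green) and in the FBS arm (open purple), with bars for the SE of the limma fit. Sp5, Fgf5, Ccnd2 and Gadd45g lie above 0 in the serum-free arm and below 0 in the FBS arm, and Sox17 and Stra8 lie the other way. The FBS changes of these genes did not pass by themselves.

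Besides Sp5, the highest fitted differences between the arms were those of Agtr2 (angiotensin II receptor, 6.07), Il1rl1 (the interleukin 33 receptor ST2, 5.43), Cdx2 (5.16) and Lyz1 (lysozyme of macrophages and Paneth cells, 4.75). Agtr2 was not above background on any array of serum-free day 3 or FBS day 10, nor Cdx2 on any of serum-free day 3, so these values rest in part on undetected signals. Il1rl1 was above background on 1 serum-free array of day 10 and on none of day 3 (at least 2.12-fold higher, adjusted p = 0.0286), and its other probes differed by -0.75 and 0.77 between the serum-free days. The lowest fitted differences were those of Hkdc1 (-4.81), Camk2n1, an inhibitor of CaM kinase II (-4.51), Stra8, Med12l, a Mediator subunit (-4.18) and Dleu7 (-4.17). Camk2n1, Med12l and Dleu7 were not above background on the serum-free arrays of day 10, and changed by 2.03, 1.50 and 2.00 in the FBS arm. Between the serum-free days the probe used for Med12l differed by -2.68 and a second probe by -0.11, neither passing.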

How the data were processed

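RNA of 12 ES cell samples was labelled and hybridised to Agilent single-colour arrays, per the labels. The deposited spot intensity is the processed signal of Feature Extraction, background-subtracted and detrended, per the file headers; raw mean and local background intensities, deposited beside it, served an alternative. The authors also deposited a series table. How it was made is not given in the sources used here, but the values the authors deposited are a ratio of the background-subtracted signal to the array median.

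From the intensities, log2 of the processed signal minus each array's 75th percentile over non-control spots was computed. Each gene is represented by its probe of highest mean, and tested if 2 or more arrays had it well above background. limma 3.58.1 in R 4.3.3 fitted 6 groups plus the cell line to all 12 arrays (5 residual degrees of freedom), with Benjamini-Hochberg adjustment over 20790 genes. Where a gene was below background on every array of a group, its fold is the detected mean over the other group's mean of, on each array, the higher of the gene's own signal and the array's floor (the lowest signal well above background). Levels of different probes were not compared.

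Replicate 1 is Stella-GFP and replicate 2 is Dazl-GFP, so the cell line pairs the arrays and was the block. Across genes the line differences correlated at -0.05 to 0.57 over 15 pairs of groups (median 0.156). Genes named are the 12 highest and 12 lowest changes, the 5 leading genes of each class and direction, 2 to 4 members of the lists described, Dazl, Dppa3, Nanog, Pou5f1 and the Tet genes, and the 5 highest and lowest differences between the arms. The highest and lowest changes are those of genes called with 1 sign in both lines. The rankings by change, by class and between the arms leave out clone and accession names. A few genes picked this way are not reported here. The genes, the 35 lists and the tests were chosen with earlier results of these data known. The number of arrays limits the precision. Alternatives were quantile normalization, normexp (offset 50), the deposited table (values under 0.1 raised to it), other filters on dim probes, all probes, no line block, a slide block, fits with a variance trend, fewer arrays and leaving out each array. Figures were drawn with matplotlib 3.10.9.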

Additional observations from a re-analysis of the deposited data

Results flagged for a closer look

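The genes below were marked because their change after day 3 differed between the serum-free and the FBS arm in limma (adjusted p under 0.05 over 20790 genes, the test of the difference itself). Each value is the log2 change in the serum-free arm minus that in the FBS arm, and 9.71% of all genes tested passed this test. The values share the serum-free arrays with the comparison of the days, and no explanation for them was tested. Olr1 was not above background in any of the 4 groups compared, so its value rests on undetected signals alone. For Agtr2, Btla, Camk2n1, Cdx2, Dleu7, Gp1ba, Gpld1, Gsta2, Il1rl1, Med12l, Nmbr and Tnfsf11 at least 1 of these groups had no array above background, and their values are fitted ones.

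Wnt, formative and ERK-related genes were higher, with Sp5 6.32, Cdx2 5.16, Fgf5 3.79, Ccnd2 3.55, Pou3f1 3.19, Dnmt3b 3.13, Cdh2 2.33, Dusp6 2.12, T 2.08 and Ccnd1 1.61. Of general pluripotency and of the TET enzymes, Lin28a 2.36 and Tet2 -1.22 passed. The basement membrane and endoderm genes were lower, with Lama1 -4.03, Sox17 -3.97, Col4a1 -3.54, Gata6 -3.39, Col4a2 -3.18 and Sox7 -1.94. Fibroblast and contractile genes were higher, with Thy1 2.86, Myl9 2.82, S100a4 2.66, Vim 1.84, Cnn1 1.30 and Mmp14 1.76.

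Immune and chemokine genes gave Il1rl1 5.43, Lyz1 4.75, Lyz2 4.49, Btla 3.93, Tnfsf11 3.60, Olr1 2.55, Cxcl12 2.29, Ccl5 2.28 and Tlr2 -2.20. Retinoid, imprinted and neural genes gave Rxrg 4.29, Stra8 -4.25, Mest 2.29, Dlk1 1.94, Cdkn1c 1.45 and Sox1 2.62. Genes of varied function were higher, with Agtr2 6.07, Gpld1 4.19, Gadd45g 3.83, Wt1 3.31, Bcl11a 2.78 and Gp1ba 2.47. Others were lower, with Hkdc1 -4.80, Camk2n1 -4.51, Med12l -4.18, Dleu7 -4.17, Pygl -3.75, Gsta2 -3.22, Nmbr -2.94, Msln -2.77, Col17a1 -2.65 and Trib3 -1.52.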

How the results depend on the processing

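Directions held for the probe that represents each gene, and calls did not. With that probe, no named gene called between serum-free days 10 and 3 reversed under any alternative. Other probes of a gene were not part of this check. Of these, a probe of Gata6 (0.53) and a probe of Il1rl1 (-0.75) had the opposite sign, without passing. The counts depend on the estimate of the spread, which rests on 5 residual degrees of freedom. The cause of the shifts below was not tested. Between days 10 and 3, 483 genes passed. Normexp gave 0 (1139 at an unadjusted p under 0.05), normexp with odd local backgrounds repaired 1125, no filter on dim probes 231, a filter to genes above background on all 12 arrays 949, each probe tested by itself 225, no replicate block (cell line left out) 119, the slide as a block 0 (3857 unadjusted), a variance trend 1257, the 4 arrays alone 0 (4963 unadjusted) and the 6 serum-free arrays alone 0 (6265 unadjusted). In the same order up to the trend, the difference between the arms (2019 genes) gave 0 (1615 unadjusted), 8620, 495, 3452, 228, 3, 0 (6915 unadjusted) and 3272. Returned genes (274) gave 0, 664, 130, 539, 133, 73, 0 and 722, and 0 on the 6 arrays. Late genes (112) gave 0, 378, 56, 270, 49, 23, 0 and 337, and 0 on the 6 arrays. Under normexp, no filter, no replicate block and the slide block, day 10 against day 0 (1114) gave 0 (1243 unadjusted), 731, 584 and 40, and persisted genes (434) gave 0, 279, 230 and 13, with 286 on the 6 arrays. Day 3 against day 0 (2900) gave 64 under normexp and 1919 with no replicate block. Leaving out 1 array gave 0 to 759 genes between days 10 and 3 (50 without either serum-free array of day 0, 132 without either FBS array of day 3, 759 without either of FBS day 0), 0 to 3107 for the arms, 0 to 1421 for day 10 and 236 to 3960 for day 3 against day 0, 0 to 182 late, 0 to 585 persisted and 0 to 458 returned. Of the genes called between days 10 and 3, 54.0% were higher, against 39.7% of 604 after quantile normalization and 28.0% of 626 in the authors' deposited table, which moved the median of all genes tested to 0.08 and 0.01. For day 10 against day 0 the share higher was 40.9%, against 24.1% in that table, and for the arms 62.7%, against 48.1% and 33.9%. Reversals of the representing probe among named genes came only in those that had not passed. The range on leaving out 1 array is given for each that turned. They were A2m (quantile -0.037, slide -0.28, range -0.073 to 0.28), Acer1 (0.052 under both normexp settings), Shisal2b (0.023 under both), Cdhr1 (slide -0.083), Lrp2 (slide 0.19, range -1.09 to 0.28), Mpp3 (quantile -0.025), Olr1 (0 in the authors' deposited table, slide -0.14), Pou5f1 (quantile -0.13, -0.13 in the authors' deposited table, range -0.42 to 0.51), Cyp1a1 (range -1.09 to 0.11), Dazl (range -0.62 to 0.17), Dnmt3a (range -0.28 to 0.36) and Tet1 (range -0.38 to 0.17). Signal over background limits the dim genes, since 46 of the 483 were not above background at day 3 and 38 at day 10.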

Other observations

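Several lists not described above had few or no genes that passed between serum-free days 10 and 3, where 2.32% of all genes passed. Of 16 tested macrophage markers 0 passed, with a median of 0.92 and a summed signal of 2.79 and 3.86 at day 10, against 2.32 and 3.11 at day 3. In the difference between the arms 7 of the 16 passed above 0 and 0 below it, where 6.08% of all genes passed above 0. The list median was -1.29 in the FBS arm. Lyz2, the macrophage lysozyme, stood at -1.67 and -0.84 on day 10, against -4.58 and -2.78 on day 3 (adjusted p = 0.118). Of 25 tested interferon response genes 0 passed, with a median of 0.81 that was 1.25 in Stella-GFP and 0.29 in Dazl-GFP. Of 15 tested acute phase and innate immune genes 1 rose and 1 fell, where 1.26% of all genes rose and 1.07% fell. The faller was Tlr2, a receptor for bacterial lipoproteins, which fell by 1.34 on the log2 scale (SE 0.22, adjusted p = 0.0362).

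Stress and lipid lists were near the median of all genes or below it. Of 24 targets of ATF4, the factor of the amino acid response, 0 passed and the median was 0.05 in the serum-free arm, against 0.88 in the FBS arm, where all 24 had a positive sign. Trib3, a pseudokinase among them, changed by -0.76 in the serum-free arm and by 0.76 in the FBS arm. Of 24 sterol synthesis and 11 fatty acid synthesis genes 0 passed, with medians of -0.35 and -0.28.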
